A study of Mus musculus with 10 samples.

Results

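Stra8 and the genes that act beside it at entry into meiosis were measured in sorted mouse oocytes at embryonic day E16.5. The group comprised 6 genes, Stra8, Gm4969 (the locus now called Meiosin), Zglp1, Ythdc2, Meioc and Rbm46. They were taken by gene symbol from the deposited expression table and by gene identifier from the count table, and are 6 of the 55536 genes counted. Of the 6, 5 had enough reads to be tested and Zglp1 did not.

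The 10 libraries came from female C57BL/6 embryos and fell into 2 genotypes of 5 libraries, Taf4b-heterozygous and Taf4b-deficient, from litters of 3 dates. Taf4b encodes a subunit of TFIID, the complex that recognises core promoters, and is expressed mainly in the gonads. Parents were homozygous for Oct4-EGFP, a transgene that makes germ cells fluoresce green, so both genotypes carry it, and GFP-positive live cells were sorted. Every control also carries 1 Taf4b-deficient allele, and no wild-type library was analysed here. The labels do not say whether the libraries of a genotype come from separate embryos or from pools, so p-values reflect only the spread among these libraries, which may be technical in part.

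Germ cells of the fetal ovary leave mitosis and enter meiotic prophase under retinoic acid and BMP signals. STRA8, induced by retinoic acid, and its partner MEIOSIN bind promoters together and switch on the genes of meiotic prophase. ZGLP1 is a transcription factor downstream of BMP signalling that helps to set oocyte fate. YTHDC2, an RNA helicase that binds m6A-marked RNA, works with MEIOC and RBM46 to lower mitotic transcripts so that the meiotic programme can take over. In the mouse ovary Stra8 RNA is known to be transient, appearing at meiotic entry and declining as prophase proceeds.

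Total counts ran from 16707216 to 26983565 per library. Taf4b itself was at 271, 290, 142, 65.7 and 100.98 CPM (read counts scaled to a common library size) in heterozygous libraries 1 to 5 and at 80.7, 81.7, 80.2, 73.7 and 58.2 CPM in deficient libraries 1 to 5. The library labelled heterozygous 4 lay within the deficient range, so its Taf4b level does not bear out its label. The alpha-globin gene Hba-a1 exceeded 200 CPM in 3 libraries, the one labelled heterozygous 4 (260.4 CPM), heterozygous 5 (798 CPM) and deficient 5 (589.5 CPM), and lay at 24.0 to 102 CPM elsewhere. These 3 libraries stand apart, and fold changes and correlations are also given without them where they move most. The summed level of 9 pan-germ cell markers was 4737 to 6939 CPM among heterozygous and 3571 to 5525 CPM among deficient libraries, which bears out the labelled cell type. In sign 1 of the 9 was higher and 8 lower in deficient libraries. Their median log2 fold change, deficient over heterozygous, was -0.38, against -0.02 over all tested genes. Of the 9, 3 had an unadjusted p under 0.05 by edgeR, all lower, and 0 were called. Over all 19244 tested genes 16.6% had such a p, 9.13% in the lower direction.

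Promoter sequence is shown for Stra8, Gm4969 and Meioc, whose levels were low together in heterozygous 5 and the library labelled heterozygous 4, and for Rbm46, whose level was not. RefSeq (GRCm38.p6) held an entry for 5 of the 6 genes, with Gm4969 under the symbol Bhmg1. Ythdc2 had none. Each entry runs from 250 bases before to 50 bases after the start, and positions count back from the start. Motifs were searched on both strands as AGGTCA (a half-site of retinoic acid receptors), CNCCTCAG (the motif of STRA8 and MEIOSIN), CCAAT (bound by NFY), GGGCGG (SP factors), CACGTG (the E-box of MAX and MGA), GCGGGAAA (E2F) and TATAAA (the TATA box). Capitals mark the matches, the opposite strand included.

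The RefSeq start of Stra8 lies inside exon 2 of its longest GENCODE transcript, in annotated untranslated sequence, so only its AGGTCA matches are printed, each with 10 bases on either side. They lie on the plus strand at chr6:34920744-34920769 and chr6:34920900-34920925.
Stra8, match at -194: tggggtgaaaAGGTCAtcttgctcct
Stra8, match at -38: ctggggtaccAGGTCAgttttttacc

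The other windows are at chr7:19118369-19118594 (Gm4969, minus strand), chr11:102665335-102665584 (Meioc, plus strand) and chr3:82876484-82876733 (Rbm46, minus strand). That of Gm4969 stops 24 bases short of the RefSeq start, where its GENCODE exon begins. The Meioc window lies inside the GENCODE gene, which begins at chr11:102663716, and holds 0 annotated exon bases.
Gm4969: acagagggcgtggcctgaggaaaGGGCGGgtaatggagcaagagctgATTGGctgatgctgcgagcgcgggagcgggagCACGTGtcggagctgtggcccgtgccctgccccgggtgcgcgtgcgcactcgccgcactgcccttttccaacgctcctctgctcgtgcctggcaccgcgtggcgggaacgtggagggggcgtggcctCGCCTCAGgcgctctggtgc
Meioc: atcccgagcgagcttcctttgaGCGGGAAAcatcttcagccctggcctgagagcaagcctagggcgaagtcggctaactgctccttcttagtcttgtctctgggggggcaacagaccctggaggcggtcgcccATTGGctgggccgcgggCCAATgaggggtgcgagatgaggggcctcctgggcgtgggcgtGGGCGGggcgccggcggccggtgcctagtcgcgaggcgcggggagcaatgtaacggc
Rbm46: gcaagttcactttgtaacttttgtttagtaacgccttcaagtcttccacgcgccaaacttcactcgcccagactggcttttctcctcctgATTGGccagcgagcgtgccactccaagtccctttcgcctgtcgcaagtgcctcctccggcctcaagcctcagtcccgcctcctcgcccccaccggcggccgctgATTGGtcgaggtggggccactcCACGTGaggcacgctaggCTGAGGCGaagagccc

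AGGTCA was found in the Stra8 window 2 times, and 16.3% of the 32851 RefSeq promoter windows of the same length held it. Neither Gm4969, Meioc nor Rbm46 had it. CNCCTCAG, held by 7.94% of windows, was found in Gm4969 at -44 and in Rbm46 at -16 on the opposite strand. CACGTG, held by 7.15%, was in Gm4969 and Rbm46, and GCGGGAAA, held by 1.07%, was in Meioc at -228. CCAAT, held by 37.4%, had 4 matches in Stra8, 2 each in Meioc and Rbm46 and 1 in Gm4969. In Zglp1 a match to AGGTCA on the opposite strand overlapped one to CACGTG, and GGGCGG (35.7% of windows) had 3 matches there. No TATAAA (13.6% of windows) was in any of the 5 windows. A match describes the letters only.

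Levels were compared between genes as TPM, a relative abundance scaled by transcript length. By mean over the 10 libraries the order was Stra8 at 250.5 TPM, Meioc at 171 TPM, Gm4969 at 85.5 TPM, Rbm46 at 62.0 TPM, Ythdc2 at 15.6 TPM and Zglp1 at 0.0423 TPM. Stra8 and Meioc did not differ beyond their spread. Stra8 was the higher of that pair in 1 of 5 heterozygous and 4 of 5 deficient libraries. Gm4969 exceeded Rbm46 in 7 of 10 libraries, whereas Meioc exceeded Gm4969, and Rbm46 exceeded Ythdc2, in 10 of 10. Among the tested members TPM ran from 0.140 to 0.834 per CPM (read counts scaled to library size, not length). The proliferation marker Mki67 averaged 84.8 CPM but 3994 TPM over heterozygous libraries, so ranks by TPM among all genes carry that limit.

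**Figure D1:**
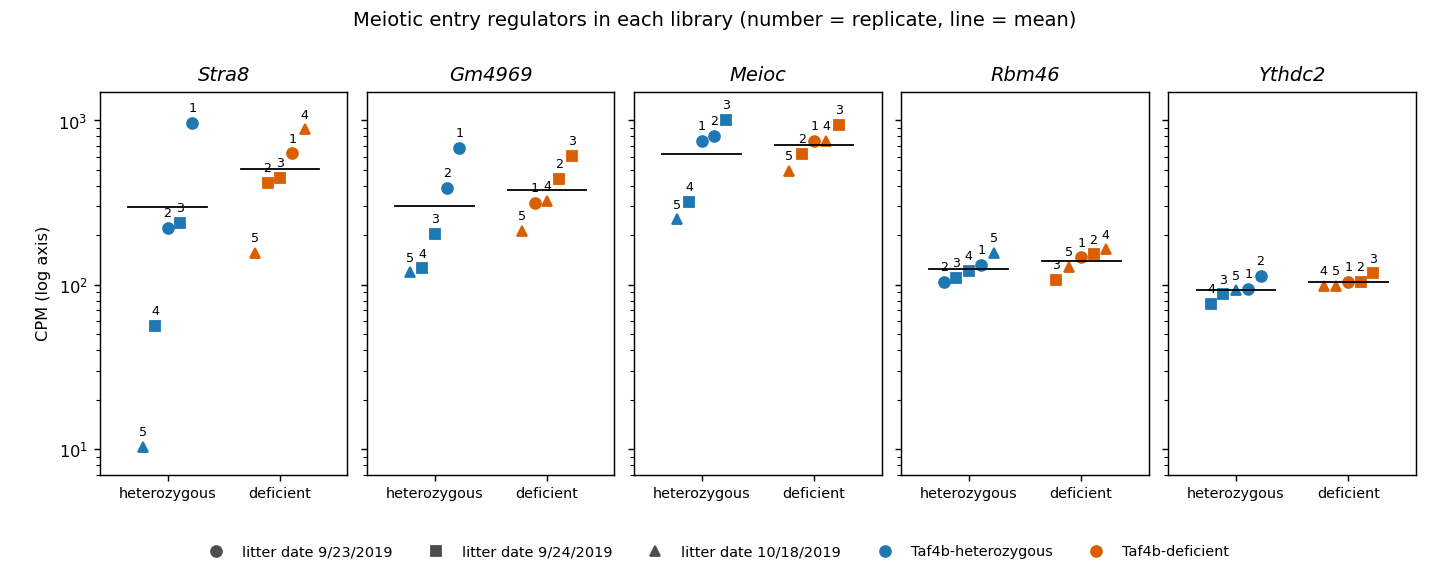
Level of each of the 5 testable genes in every library, in CPM on a log axis, by genotype, with points numbered by library, shaped by litter date and placed from low to high, and a line at each group's mean. Stra8 spans 10.3 to 965 CPM among heterozygous and 156 to 882 CPM among deficient libraries, and the genotypes overlap for each of the 5 genes.

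Stra8 (ENSMUSG00000029848, GRCm38 chr6:34920163-34939344, plus strand, protein coding, 4 transcripts) was the most variable of the group. In heterozygous libraries 1 to 5 it was at 965, 221, 237, 56.3 and 10.3 CPM, and in deficient libraries 1 to 5 at 629.7, 415, 447, 882 and 156 CPM. The lowest levels were in heterozygous 5 and the library labelled heterozygous 4, both below every deficient library, yet heterozygous 1 was above every deficient library. The genotypes therefore overlapped. Stra8 ranked 194th by TPM among all genes in heterozygous 1 and 7598th in heterozygous 5, where it had 225 reads against 20139 in heterozygous 1. The 93.6-fold range over libraries compares with 5.64-fold within the deficient genotype.

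The mean Stra8 level was 298 ± 386 CPM (SD, n = 5) over heterozygous and 506 ± 270 CPM (SD, n = 5) over deficient libraries. The log2 fold change, deficient over heterozygous, was 0.76 ± 0.82 (SE), and edgeR's quasi-likelihood test gave it an adjusted p of 0.659. Its 95% interval of -0.83 to 2.36 covers both directions. Heterozygous 1 weighs on this value, which was 1.95 without it (adjusted p = 0.142 by edgeR). It was 1.93 with litter date as a term and 2.23 without the first date, which holds heterozygous 1. Without the 3 libraries high for Hba-a1 it was 0.33, and with all libraries kept and Hba-a1 above 200 CPM as a term it was 0.88. Without heterozygous 5 and the library labelled heterozygous 4 alone, the lowest for Stra8 in their genotype, it was 0.10. In these bulk libraries, fewer cells of a type and less RNA per cell cannot be told apart.

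Gm4969 (ENSMUSG00000085601, chr7:19099046-19118368, minus strand, protein coding, 2 transcripts) encodes the partner of STRA8. It was at 680.2, 389, 204, 126 and 119 CPM in heterozygous libraries 1 to 5 and at 315, 439, 607, 325 and 212 CPM in deficient libraries 1 to 5. As for Stra8, heterozygous 1 was the highest of all 10 libraries and heterozygous 5 the lowest. All 5 deficient libraries were above the heterozygous median, and 3 heterozygous libraries were below every deficient one. The log2 fold change was 0.32 ± 0.45 (SE, 95% interval -0.57 to 1.21), with an adjusted p of 0.751 by edgeR. It was 0.94 with litter date as a term (adjusted p = 0.221 by edgeR), 0.86 without heterozygous 1, and 1.41 without the first date (adjusted p = 0.0916 by edgeR) but -0.47 without the second.

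The ratio of Stra8 to Gm4969, taken on TPM, was not steady. It was 3.65, 1.46, 2.98, 1.15 and 0.222 in heterozygous libraries 1 to 5 and 5.14, 2.44, 1.89, 6.97 and 1.89 in deficient libraries 1 to 5. Heterozygous 5 was the one library in which Gm4969 exceeded Stra8. Its Gm4969 level was still 119 CPM, 5.71-fold below the highest library, while its Stra8 level was 93.6-fold below the highest.

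Meioc (ENSMUSG00000051455, chr11:102663716-102682237, plus strand, protein coding) encodes the partner through which YTHDC2 acts in early prophase. It was at 748, 806, 1009, 318 and 250.3 CPM in heterozygous libraries 1 to 5 and at 748, 623, 936, 753 and 493 CPM in deficient libraries 1 to 5. The library labelled heterozygous 4 and heterozygous 5 were below every deficient library, deficient 5 was the lowest of its genotype, and the other 7 lay between 623 and 1009 CPM. The log2 fold change was 0.18 ± 0.35 (SE, 95% interval -0.51 to 0.88), with an adjusted p of 0.827 by edgeR. Without heterozygous 5 it was -0.02.

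Ythdc2 (ENSMUSG00000034653, chr18:44827746-44889724, plus strand, protein coding) encodes the helicase itself and varied little. It was at 94.96, 114, 87.5, 76.5 and 92.5 CPM in heterozygous libraries 1 to 5 and at 104, 105, 117, 98.4 and 98.5 CPM in deficient libraries 1 to 5. Heterozygous 2 lay within the deficient range and the other 4 heterozygous libraries lay below it. The log2 fold change was 0.17 ± 0.16 (SE, 95% interval -0.14 to 0.48), with an adjusted p of 0.617 by edgeR.

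Rbm46 (ENSMUSG00000033882, chr3:82837228-82876483, minus strand, protein coding) encodes the RNA-binding protein that joins YTHDC2 and MEIOC. It was at 132, 104, 109.7, 121 and 156 CPM in heterozygous libraries 1 to 5 and at 147, 153, 107, 164 and 129 CPM in deficient libraries 1 to 5. Rbm46 was highest of its genotype in heterozygous 5, where Stra8, Gm4969 and Meioc were lowest. The log2 fold change was 0.17 ± 0.18 (SE, 95% interval -0.19 to 0.53), with an adjusted p of 0.664 by edgeR. Its antisense neighbour Rbm46os shares 0 exon bases with it and had 256 to 451 reads per library.

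Zglp1 (ENSMUSG00000079681, chr9:21062393-21067093, minus strand, protein coding) had 1 read in the library labelled heterozygous 4, 1 read in heterozygous 5 and 0 in each of the other 8 libraries. That level is uncertain. Of its 1088 exon bases, 1003 (92.2%) are shared with Gm49373, a gene on the same strand that had 0 reads in every library, and how the counting treated reads in shared exons is not given in the sources used here. No fold change is given for Zglp1.

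Over the whole table edgeR called 0 of 19244 genes (0%) at an adjusted p under 0.05, and 3190 genes (16.6%) had an unadjusted p under 0.05, 7.45% higher and 9.13% lower in deficient libraries. None of the 5 tested members had an unadjusted p under 0.05, the smallest being 0.307 for Ythdc2. DESeq2 called 649 genes (3.13%) and limma voom with quality weights 510 (2.65%), with no member among either. Without heterozygous 1, edgeR called 606 genes (3.07%), again with no member, and without the 3 libraries high for Hba-a1 it called 0 of 19655 (0%). The authors' deposited table called 1172 of 31181 genes (3.76%) and no member, with log2 fold changes of 1.00 for Stra8 (adjusted p = 0.396 by DESeq2), 0.23 for Gm4969, 0.15 for Rbm46 and 0.13 for both Meioc and Ythdc2. The genotypes overlapped for each of the 5 members, against 680 genes (3.53%) whose genotypes did not overlap. All 5 log2 fold changes were above 0 in the edgeR fit, but the signs for Gm4969 and Meioc depended on the libraries high for Hba-a1. Without those 3 the values were 0.33 for Stra8, -0.0039 for Gm4969, -0.16 for Meioc, 0.31 for Rbm46 and 0.11 for Ythdc2. With all libraries kept and Hba-a1 above 200 CPM as a term, Gm4969 was at 0.22 and Meioc at 0.12. Leaving out both such heterozygous libraries, the lowest of their genotype for Gm4969 and Meioc, and keeping deficient 5 gave -0.15 and -0.26.

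**Figure D2:**
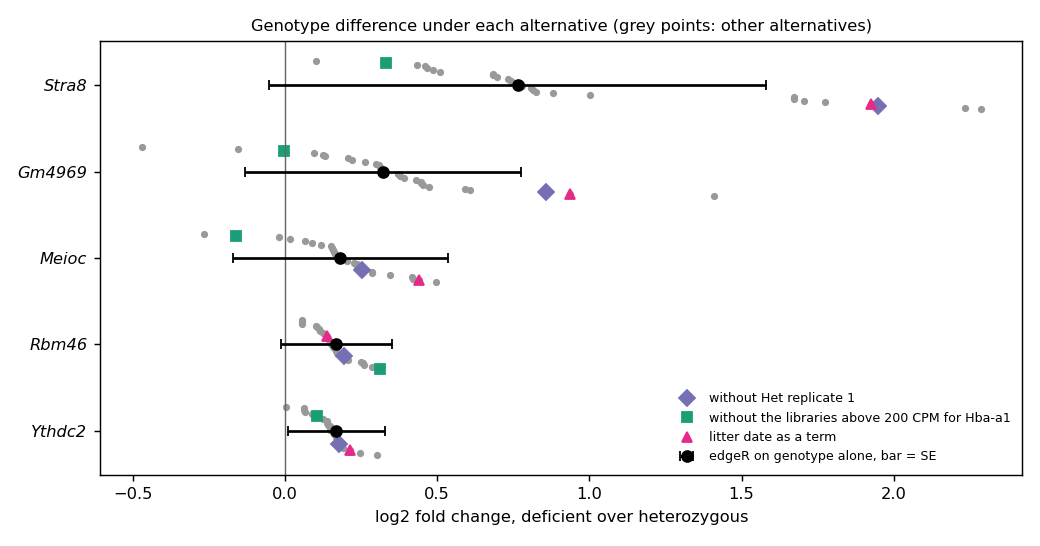
Log2 fold change, deficient over heterozygous, of the 5 tested genes in the edgeR fit on genotype alone (black, bars are SE) and under each alternative (coloured for 3 of them, grey for the rest). Stra8 moves from 0.10 without both globin-high heterozygous libraries to 2.28 with quality weights, Gm4969 and Meioc reach both sides of 0, and Ythdc2 and Rbm46 stay above 0.

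Within litter dates the difference in mean log2(CPM + 1), deficient minus heterozygous, rests on 1 or 2 libraries per genotype and has no test within a date. For Stra8 it was 0.44 on 9/23/2019, 1.89 on 9/24/2019 and 5.04 on 10/18/2019. For Gm4969 it was -0.71, 1.68 and 1.13, with the single deficient library lower on the first date and both deficient libraries higher on each of the others. Meioc gave -0.05, 0.43 and 1.28, Ythdc2 0.00, 0.43 and 0.09, and Rbm46 0.32, 0.15 and -0.10. The test of a genotype by date interaction gave unadjusted p of 0.0257 for Stra8 and 0.0200 for Gm4969, and adjusted p of 1.00 for both by edgeR, with 0 of 19244 genes called. The last date holds heterozygous 5 alone against 2 deficient libraries, and the second holds the library labelled heterozygous 4.

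**Figure D3:**
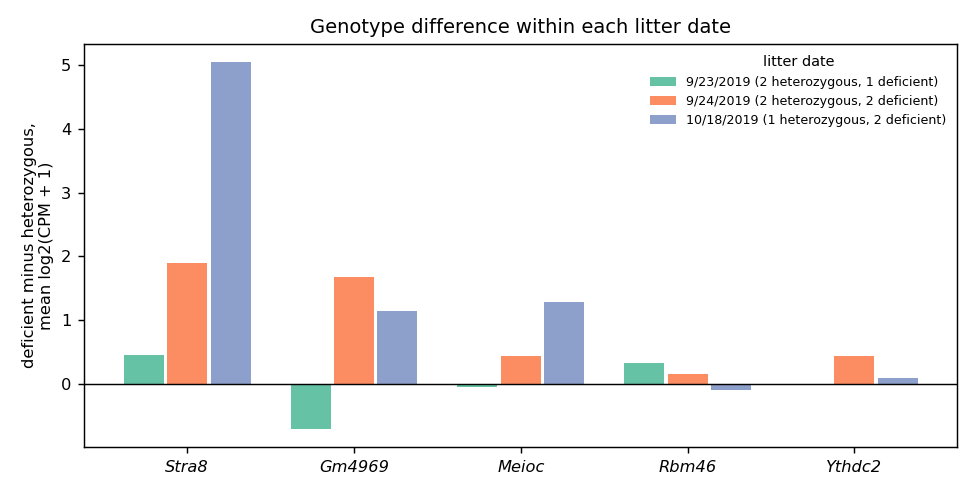
Difference in mean log2(CPM + 1), deficient minus heterozygous, for the 5 tested genes within each litter date, 1 bar per date, with the number of libraries in the legend and no error bars. The Stra8 bars reach 0.44, 1.89 and 5.04 in date order, and Gm4969 is below 0 on the first date alone.

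Spread over the libraries was wide for Stra8, Gm4969 and Meioc and narrow for Rbm46 and Ythdc2. The SD of log2 CPM over 10 libraries was 1.97 for Stra8, 0.86 for Gm4969, 0.66 for Meioc, 0.24 for Rbm46 and 0.18 for Ythdc2. Among 9235 genes with a mean of at least 10 CPM the median SD was 0.40, so Stra8 ranked 13th and Ythdc2 8907th from the highest. Within the heterozygous genotype Stra8 ranked 12th (SD 2.43) and within the deficient genotype 57th (SD 0.93, against a median of 0.27).

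Stra8 varied together with Gm4969 and Meioc over the libraries. Pearson's r of log2(CPM + 1) over 10 libraries was 0.83 with Gm4969 (Spearman's rho 0.76) and 0.84 with Meioc (rho 0.50), and these fell to 0.60 and 0.20 without heterozygous 5 and the library labelled heterozygous 4. That pair was chosen as farthest from the Stra8 median, so leaving it out narrows the range of Stra8, which alone can lower r. Over the 7 libraries low for Hba-a1, r was 0.44 with Gm4969, -0.44 with Meioc, 0.71 with Rbm46 and -0.15 with Ythdc2. Stra8 had an r of 0.45 with Ythdc2 and -0.01 with Rbm46, while Gm4969 had 0.71 with Ythdc2 (0.50 without the same libraries). The points share library, depth and composition, and are described here without a test. Against all 9219 genes ranked, Meioc was only the 755th and Gm4969 the 854th most alike to Stra8.

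**Figure D4:**
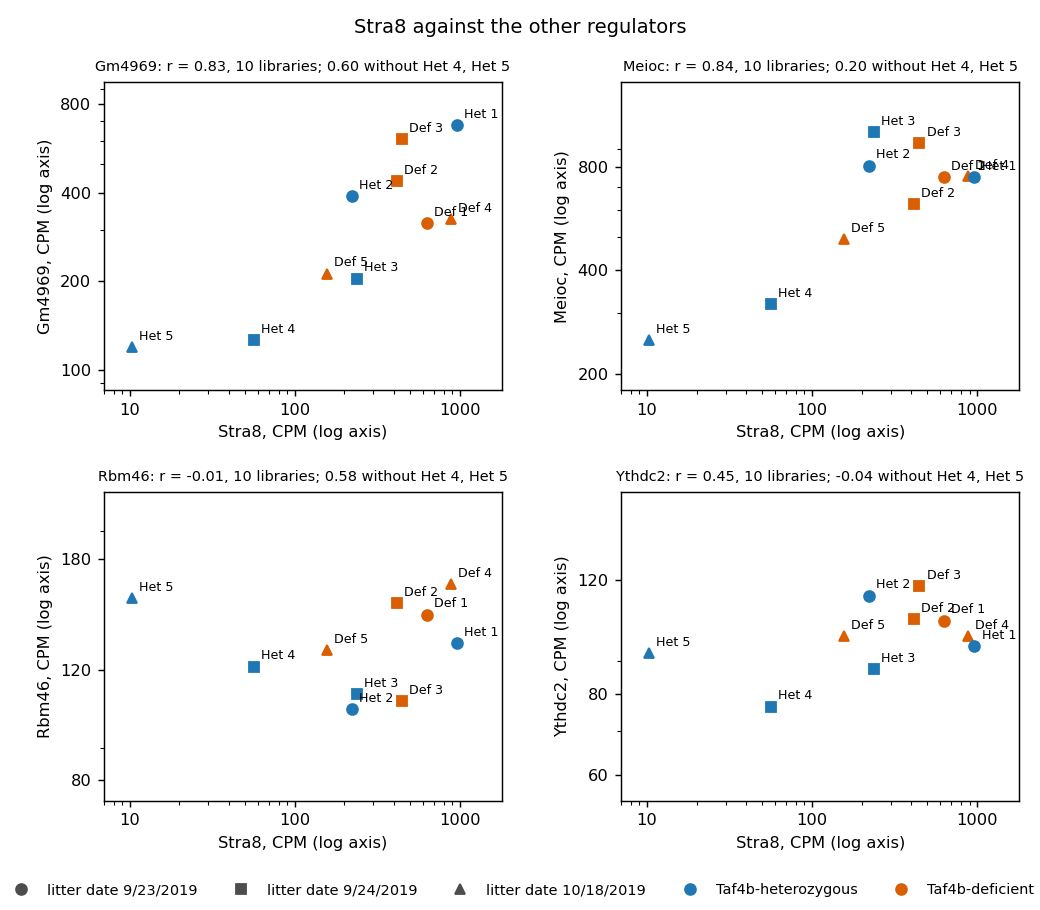
Level of Gm4969, Meioc, Rbm46 and Ythdc2 against Stra8, both in CPM on log axes, 1 labelled point per library, coloured by genotype and shaped by litter date, with Pearson's r above each panel. The library labelled heterozygous 4 and heterozygous 5, at 56.3 and 10.3 CPM of Stra8, are the low points for Gm4969 and Meioc but not for Rbm46.

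The genes most like Stra8 by Pearson's r over the 10 libraries were the lncRNA Gm17733 (0.99), 4930524B15Rik (0.98), Nmb, which encodes the peptide neuromedin B (0.97), the lncRNA Gm15559 (0.97) and the pseudogene H2-K2 (0.97). Gm17733 ran from 1.92 CPM in heterozygous 5 to 41.7 CPM in heterozygous 1, the same extremes as Stra8. The genes most opposite to it were Henmt1, which encodes the methylase of piRNA ends (-0.99), Rest, a repressor of neuronal genes (-0.99), and Mtrf1, a mitochondrial release factor (-0.98). Henmt1 ran from 3.98 CPM in heterozygous 1 up to 64.5 CPM in heterozygous 5. Over the 7 libraries low for Hba-a1 the 5 alike genes had an r of 0.72 to 0.94 and the 3 opposite ones -0.97 to -0.90. For Gm4969 the most alike were Rnf19b, Map3k3, Samd4b and Zdhhc5 (each 0.96) and Ppp6r1 (0.95), and the most opposite Ccnh (-0.97), Bnip3l-ps (-0.96) and Caml (-0.95). None of these 16 genes passed the genotype test, with adjusted p of 0.201 or more by edgeR.

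The pathway around the members was read through 9 gene lists with 141 distinct tested genes, of which edgeR called 0 between genotypes. The median log2 fold change over all tested genes was -0.02, and each list is given beside it. Without heterozygous 1, 10 of 142 were called, 4 higher and 6 lower, against the 3.07% of all genes called in that fit.

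Upstream of the members, 15 of 18 retinoic acid genes were tested, 8 higher and 7 lower in sign, with a median log2 fold change of 0.07. Aldh1a3, which makes retinoic acid, was at 3.27 ± 2.16 CPM (SD, n = 5) over heterozygous and 1.47 ± 0.30 CPM (SD, n = 5) over deficient libraries (log2 fold change -1.15, adjusted p = 0.217 by edgeR, and -0.48 without the 3 libraries high for Hba-a1). Dhrs3, which limits retinoic acid by reducing retinal, was at 5.79 and 3.77 CPM (adjusted p = 0.270), and Cyp26b1, which degrades retinoic acid, at 0.452 and 0.761 CPM (adjusted p = 0.369 by edgeR). Of these, Aldh1a3 was highest in the library labelled heterozygous 4, at 6.76 CPM.

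BMP signalling held 16 tested genes, 7 higher and 9 lower in sign, with a median of -0.26. Bmpr2, the type II BMP receptor, was at 32.0, 31.6, 24.6, 29.9 and 25.8 CPM in heterozygous libraries 1 to 5 and at 49.4, 55.9, 39.4, 52.0 and 39.4 CPM in deficient libraries 1 to 5. All 5 deficient values were above every heterozygous one, with a log2 fold change of 0.71 ± 0.18 (SE, adjusted p = 0.131 by edgeR, 0.0497 without heterozygous 1 and 0.0176 by DESeq2). Bmpr1b also did not overlap, averaging 1.14 CPM over heterozygous and 0.496 CPM over deficient libraries (adjusted p = 0.187 by edgeR). Its nearest values were only 0.735 CPM in heterozygous 3 and 0.697 CPM in deficient 1. Both genes were picked for their small p, and 680 of all 19244 tested genes (3.53%) did not overlap. Id1, a direct BMP target, was high in heterozygous 5 (982 CPM), the library labelled heterozygous 4 (519 CPM) and deficient 5 (249.5 CPM), and between 63.0 and 100.1 CPM elsewhere. Its log2 fold change of -1.67 (adjusted p = 0.254 by edgeR) became -0.23 without all 3 of those and 0.33 without the heterozygous pair alone.

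Among 7 activators and licensing genes, 5 were higher and 2 lower in sign, with a median of 0.41. Dazl, the RNA-binding protein that licenses germ cells for meiosis, averaged 1972 CPM over heterozygous and 1701 CPM over deficient libraries. Of 15 tested repressors of meiotic entry, 11 were higher and 4 lower in sign, with a median of 0.12. Mga, whose product with MAX silences meiotic genes, was at 170.5 ± 49.8 CPM (SD, n = 5) over heterozygous and 263 ± 45.9 CPM (SD, n = 5) over deficient libraries, with an adjusted p of 0.207 by edgeR. Voom called Mga higher (adjusted p = 0.0440 by voom). Uhrf1, a cofactor of DNA methylation, was at 212 and 108 CPM (adjusted p = 0.145 by edgeR) and was called lower without heterozygous 1, by DESeq2 and by voom.

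Downstream, all 36 listed targets of STRA8 and MEIOSIN were tested. In sign 27 were higher and 9 lower in deficient libraries, with a median of 0.11. Of the 36, 1 had an unadjusted p under 0.05 by edgeR, in the lower direction, against 16.6% of all tested genes in either direction. Over the 10 libraries 32 of the 36 had a positive r with Stra8, and 20 of 36 over the 7 libraries low for Hba-a1. A positive r over the 10 libraries was common, since Rbm46, at -0.01, was the 5115th most alike to Stra8 of 9219 genes. The share of all genes over the 7 libraries is not given. The list's median level, as a log2 deviation from each gene's mean, was 0.42, 0.11, 0.51, -0.72 and -0.87 in heterozygous libraries 1 to 5 and 0.18, 0.20, 0.12, 0.37 and -0.33 in deficient libraries 1 to 5. It was lowest in heterozygous 5 and the library labelled heterozygous 4, then in deficient 5, and its r with Stra8 was 0.89 over 10 libraries, 0.58 without the former pair and 0.21 without all 3.

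Rec8, the meiotic cohesin subunit and a known direct target, had an r of 0.96 with Stra8 (0.86 over the 7 libraries low for Hba-a1). It was at 49.7, 10.4, 24.8, 7.001 and 2.34 CPM in heterozygous libraries 1 to 5 and at 53.1, 28.5, 42.2, 49.6 and 10.99 CPM in deficient libraries 1 to 5. The genotypes overlapped, with a log2 fold change of 0.97 ± 0.64 (SE, adjusted p = 0.455 by edgeR), and 0.62 without the 3 libraries high for Hba-a1. Dmc1, the meiotic recombinase, and Prdm9, which marks recombination sites, were chosen after their values were seen. Dmc1 had an r of 0.95 and ran from 121 CPM in heterozygous 5 to 493 CPM in heterozygous 1, and Prdm9 had an r of 0.90 and ran from 94.5 CPM in heterozygous 5 to 759 CPM in heterozygous 3. Over the 7 libraries low for Hba-a1 the r was 0.64 for Dmc1 and -0.09 for Prdm9.

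Other listed targets ran opposite to Stra8. Psma8, a proteasome subunit of germ cells, had an r of -0.91 (-0.60 over the 7 libraries low for Hba-a1) and was at 63.2 and 85.5 CPM in the library labelled heterozygous 4 and heterozygous 5, against 20.1 to 38.6 CPM in the other 8. Its adjusted p was 0.162 by edgeR and 0.0428 without heterozygous 1, where it was called lower. Its log2 fold change of -0.94 was -0.47 without the 3 libraries high for Hba-a1. Sycp1, of the synaptonemal complex, was chosen after its values were seen. It had an r of -0.41 (0.40 over those 7 libraries) and was highest in heterozygous 5, at 1932 CPM.

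The partners of YTHDC2 and the m6A machinery gave 17 tested genes, 8 higher and 9 lower in sign, with a median of -0.04. Ythdc1, the nuclear m6A reader, was at 78.1 ± 37.6 CPM (SD, n = 5) over heterozygous and 137 ± 26.8 CPM (SD, n = 5) over deficient libraries (adjusted p = 0.205 by edgeR, 0.0395 without heterozygous 1 and 0.0438 by voom). Ythdf1, a cytoplasmic reader, was at 97.1 and 184 CPM, and Cbll1, a subunit of the m6A writer complex, at 62.6 and 43.2 CPM. Both were called only without heterozygous 1, among the fits on the listed alternatives, the former higher and the latter lower.

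The mitotic genes that fall at meiotic entry gave 6 higher and 10 lower of 16, with a median of -0.25. Of these, 1 higher and 5 lower had an unadjusted p under 0.05 by edgeR, against 7.45% and 9.13% of all tested genes. The kinase genes Aurka and Plk1 averaged 41.3 and 40.4 CPM over heterozygous and 25.5 and 22.4 CPM over deficient libraries. Mki67, a proliferation marker, was at 84.8 and 173 CPM, in the opposite direction. None of the 3 passed by edgeR on genotype alone, with adjusted p of 0.167 to 0.178, while voom called Mki67 higher and Plk1 lower. Mki67 was also called higher by edgeR with Hba-a1 above 200 CPM as a term (log2 fold change 0.88, adjusted p = 0.0231).

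Genes of late primordial germ cells gave 6 higher and 4 lower of 10, with a median of 0.30. Lin28a, an RNA-binding protein of immature germ cells, averaged 1.88 CPM over heterozygous and 5.54 CPM over deficient libraries (adjusted p = 0.224 by edgeR, 0.0437 without heterozygous 1 and 0.0446 by voom). Lin28b was at 36.6 and 64.8 CPM (adjusted p = 0.150 by edgeR, 0.0480 by DESeq2 and 0.0470 by voom). Dppa4, of the same list, went the other way, at 17.2 and 7.20 CPM (adjusted p = 0.215 by edgeR). Its log2 fold change of -1.25 was -0.10 without the 3 libraries high for Hba-a1. The r of Dppa4 with Stra8 was -0.83 (0.64 over the 7 libraries low for Hba-a1). The list's level had an r of 0.87 with Stra8, 0.82 without heterozygous 5 and the library labelled heterozygous 4, and 0.88 over the 7 libraries low for Hba-a1.

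Oocyte growth genes ran the other way. Of 12 tested, 2 were higher and 10 lower in sign, with a median of -0.70, and their level had an r of -0.94 with Stra8 (-0.75 without the same pair, -0.63 over the same 7). An unadjusted p under 0.05 by edgeR was found for 6 of the 12, all lower, against 9.13% lower over all tested genes. Nobox, an oocyte transcription factor, averaged 58.1 ± 67.9 CPM (SD, n = 5) over heterozygous and 5.58 ± 1.37 CPM (SD, n = 5) over deficient libraries, without overlap (adjusted p = 0.116 by edgeR, 0.00255 by DESeq2). Heterozygous 5 (166 CPM) and the library labelled heterozygous 4 (84.8 CPM) carried that mean, with 10.1 to 16.9 CPM in the other 3. The log2 fold change of -3.38 was -1.23 without the 3 libraries high for Hba-a1 (adjusted p = 0.285 by edgeR). Tle6, of the maternal complex, was highest in heterozygous 5 (137 CPM) and the library labelled heterozygous 4 (98.7 CPM), with 31.5 CPM in deficient 5 and 10.4 to 35.2 CPM elsewhere. Its log2 fold change of -1.93 (adjusted p = 0.159 by edgeR, 0.0181 by DESeq2) was -0.97 without the same 3 and -0.57 without the heterozygous pair alone. With Hba-a1 above 200 CPM as a term it was -1.22 (adjusted p = 0.0457 by edgeR). Tle6 was also called lower by edgeR with no low-count filter and without heterozygous 1. The 2 libraries with least Stra8 were the 2 with most Tle6.

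**Figure D5:**
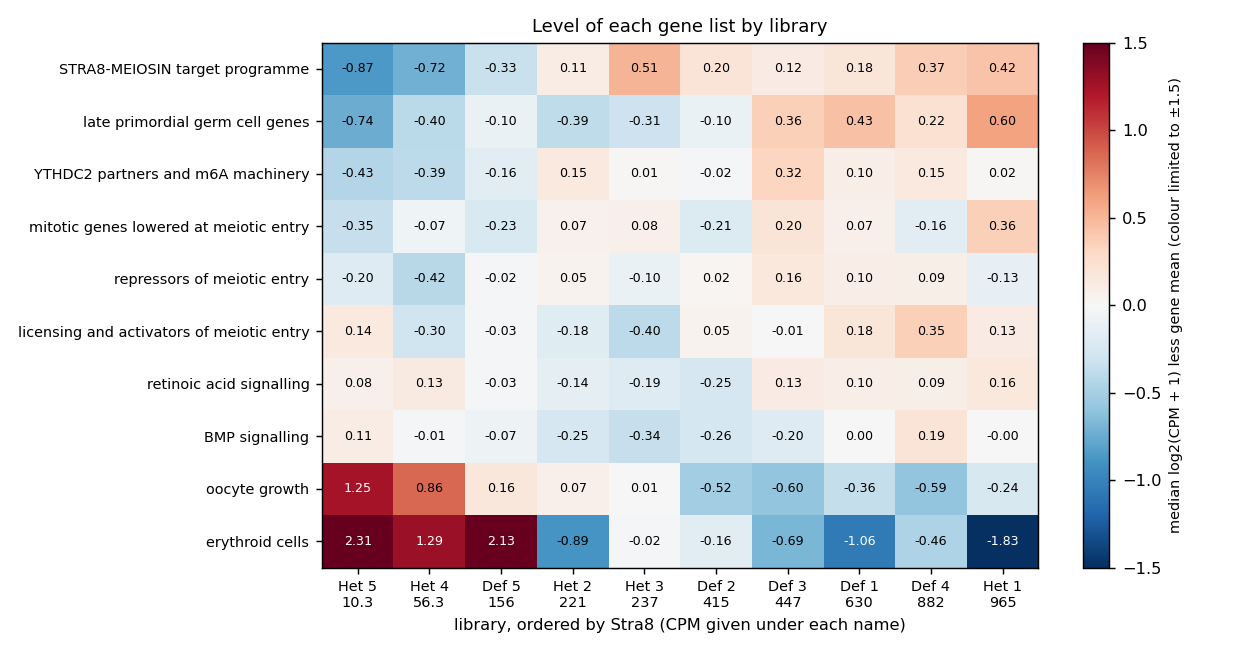
Median level of each of the 9 pathway lists and of the erythroid genes in every library, as the log2 deviation from each gene's mean over libraries (colour and printed value), with libraries ordered by Stra8 from low to high. The STRA8 and MEIOSIN targets are at -0.87 and the oocyte growth genes at 1.25 in heterozygous 5, the library with least Stra8.

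Markers of other cells mostly ran opposite to Stra8 over the 10 libraries. The r of each list's median level with Stra8 was -0.84 for erythroid, -0.52 for endothelial, -0.45 for stromal and -0.32 for pregranulosa genes. It was 0.35 for macrophage genes. Over the 7 libraries low for Hba-a1 these values were -0.54, 0.05, 0.20, 0.09 and -0.04. The summed level of 12 erythroid genes was high in heterozygous 5 (2090 CPM), deficient 5 (1612 CPM) and the library labelled heterozygous 4 (724 CPM), the lowest libraries for Stra8 in their genotypes, and 69.2 to 230.4 CPM in the others. Hbb-bh1 had 0 reads in every library, and Hbb-y and Hba-x stayed below 1 CPM. The ranges in heterozygous and deficient libraries were 47.0 to 109.8 and 38.1 to 121 CPM for 11 pregranulosa genes, 17.3 to 73.5 and 20.0 to 107 CPM for 9 stromal genes, 23.4 to 108 and 18.8 to 91.7 CPM for 8 endothelial genes, and 160.3 to 253 and 107 to 223 CPM for 8 macrophage genes. The mitochondrial share of counts was 3.04% to 3.34% in the 3 libraries high for Hba-a1 and 0.853% to 2.56% in the others. The part of these in the Stra8 differences was not tested.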

How the data were processed

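RNA was measured by sequencing of sorted oocytes. The authors deposited whole-number counts and TPM per gene. Their DESeq2 comparison, per the file headers, holds a mean normalized count (a signal), log2 fold change with standard error, Wald score, and raw and adjusted p-value. The submitters' processing notes name Trim Galore 0.5.0, HISAT2 2.1.0, StringTie 1.3.3b, Subread 1.6.2 and GRCm38. How featureCounts treated strand and overlaps is not given in the sources used here.

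Genotype was tested on the deposited counts by edgeR 4.0.16 under R 4.3.3 (quasi-likelihood, TMM scaling, expression filter, no covariate), with Benjamini-Hochberg adjustment over 19244 genes and calls under 0.05. The 382 genes without a symbol took 0.0632% to 0.0945% of counts. CPM use TMM-scaled sizes, SE is the fold change over the root of F, and intervals are 1.96 SE. Levels were compared over log2(CPM + 1). GENCODE M21 coordinates matched for 99.5% of 55154 genes. The test was tested on simulated data.

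Alternatives were other scalings and filters, DESeq2 1.42.0, limma 3.58.1 voom, log2 TPM with pseudocounts of 1 and 0.1, litter date or replicate number as terms, and libraries or dates left out. Those built on Hba-a1, and the interaction, were added after seeing the data. The members and lists were chosen with earlier results of these data known. Genes picked for naming were the members, Taf4b, the 5 most and 3 least alike to Stra8 and Gm4969 (mean of at least 10 CPM), and from each list the 3 with the smallest p and the one with the highest TPM. Only part of the list genes so picked are described.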

Additional observations from a re-analysis of the deposited data

Results flagged for a closer look

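In the heterozygous libraries Stra8 was at 965 CPM in heterozygous 1, far from the next highest at 237 CPM. For Gm4969 the single deficient library of the first litter date was below both heterozygous ones (-0.71 in log2), and on each of the other dates both deficient libraries were above the heterozygous ones (1.68 and 1.13). The interaction with date had an unadjusted p of 0.0200 and an adjusted p of 1.00 by edgeR.

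Single libraries also stood far from the rest of their genotype in 6 listed genes, and chance marks about 1 in 20 such groups if values are normal. How many groups were searched is not given here, so these flags cannot be set against that rate. Deficient 5 was the highest deficient library for Id1 (249.5 CPM), Plk1 (40.0 CPM) and Tle6 (31.5 CPM). Deficient 3 was the highest for Kdm6a, a histone demethylase, at 374 CPM. Heterozygous 1 was the highest heterozygous library for Tex12, of the synaptonemal complex, at 840.0 CPM, and the lowest for Cbll1, at 36.9 CPM.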

How the results depend on the processing

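Over 28 alternatives no member passed the threshold, and Stra8, Rbm46 and Ythdc2 kept their sign. Stra8 (0.76) was 1.93 with date as a term, 2.23 without the first date, 0.88 with Hba-a1 as a term, and 0.33 and 0.10 without the libraries high for Hba-a1 and without both such heterozygous ones. Gm4969 (0.32) had log2 fold changes of 1.41 without the first litter date, 0.94 with date as a term, 0.22 with Hba-a1 as a term, -0.47 without the second date, -0.0039 without the libraries high for Hba-a1 and -0.15 without both such heterozygous libraries. Meioc gave -0.16 and -0.26 in the latter 2 settings and -0.018 to 0.418 with single libraries left out, lowest without heterozygous 5. Taf4b was -1.24 with no low-count filter, -1.23 by DESeq2 and -1.26 with Hba-a1 as a term, called in each (adjusted p = 0.0408, 0.0343 and 0.0280).

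Genes called numbered 0 of 19244 in edgeR, 251 of 44767 with no filter, 649 of 20763 by DESeq2 and 510 of 19244 by voom. They numbered 1 of 19244 with the replicate block and 241 of 19244 with Hba-a1 as a term. Leaving out 1 library gave 0 to 606, with 606 without heterozygous 1 and 1 without heterozygous 2. Listed genes called were 6 of 154 with no filter, 6 of 154 by DESeq2, 9 of 141 by voom and 3 of 141 with the Hba-a1 term. With a library left out they were 0 to 10, with 10 of 142 without heterozygous 1. Replicate numbers did not pair the samples, since same-numbered libraries had correlations of deviations from -0.34 to 0.66. Under the replicate block Stra8 was 1.77.

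Of the 33 list genes picked by p or TPM, in 28 settings, 877 values kept side and sign, 31 became called and 8 changed sign. These were Rxrb (0.019 with litter date as a term, 0.148 without the first date, -0.165 to 0.065 with a library left out), Id1 (0.33 without both globin-high heterozygous libraries) and Mettl16 (0.079 by voom, 0.040 without the second date, -0.128 to 0.122 with a library left out). The cause was not tested. Zglp1, with 2 reads in all, had no fold change, and depth and shared exons were not told apart there.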
